A study of Bos taurus with 6 samples.

Results

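The microRNAs (miRNAs) described here are paralogs of the cluster that runs from miR-17 to miR-92a. They are the miR-106b-25 cluster (miR-106b, miR-93 and miR-25), 4 miRNAs of the miR-106a-363 cluster (miR-106a, miR-18b, miR-20b and miR-363), and miR-92b. Rows were chosen by name alone, and 8 of the 771 known miRNA rows in the table bore 1 of the 8 names (all with the species prefix bta-, as in bta-miR-106b, which is mostly left out below), each with a single row and no separate 5p or 3p arm. Small RNA had been sequenced from 3 cultures labelled adipocytes and 3 labelled preadipocytes. The cells were from Holstein cattle at passage 4 to 6, were sourced from adipose tissue, and grew with 10% fetal bovine serum and 1% antibiotics in F12/DMEM. Insulin, dexamethasone, rosiglitazone and IBMX were the inducing agents, and no dose or length of induction was found in the labels. The growth text is the same for every sample, so the induced state of the adipocyte cultures rests on the cell type label. No label ties a replicate to an animal or a culture of its own, and p-values therefore measure the spread between these libraries, which may be technical.

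Mammalian genomes carry the miR-17 to miR-92a cluster, made from the MIR17HG transcript, and a pair of paralogous clusters that arose from it by duplication. The miR-106b-25 cluster lies in an intron of MCM7, a subunit of the helicase that opens DNA for replication, and is transcribed with that gene under E2F and MYC in proliferating cells. The miR-106a-363 cluster lies on the X chromosome and is low in many differentiated tissues. By their seeds, the bases that pair with target mRNAs, miR-106b, miR-93, miR-106a and miR-20b belong with miR-17 and miR-20a, which repress the cell cycle inhibitor CDKN1A and the pro-apoptotic BCL2L11. The seed of miR-18b is that of miR-18a, and miR-25, miR-363 and miR-92b share theirs with miR-92a and miR-32. In mouse and human cells, members of the MIR17HG cluster have been described as favouring the early, clonal phase of fat cell differentiation by repressing the pocket protein RBL2.

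The RefSeq gene table of cattle assembly ARS-UCD2.0 placed MIR106B, MIR93 and MIR25 side by side inside MCM7. It placed MIR106A, MIR18B and MIR20B beside MIR19B-2, MIR92A-2 and MIR363, with no gene around them. MIR92B had no miRNA gene near it, so miR-92b belongs to neither cluster, although its name was in the set. The products of MIR92A-2 and MIR19B-2 are counted in the rows miR-92a and miR-19b together with those of MIR17HG. The table therefore gives no separate level for these members of the miR-106a-363 cluster.

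Levels are counts-per-million of miRNA reads (CPM) after scaling with edgeR's trimmed mean of M values (TMM), a factor per library that lines up the bulk of the miRNAs. Mature miRNAs are of nearly equal length and no length correction was made, but ligation of adapters favours some sequences, so levels of different miRNAs are compared as reads only. Known and predicted miRNAs held 15035059 to 19123498 reads in an adipocyte library and 14525284 to 22283754 in a preadipocyte library. The single miRNA miR-21-5p took 64.0% to 74.1% of them in adipocytes and 77.9% to 80.2% in preadipocytes, so the scale chosen matters for every level. The 4 genome-feature rows (repeats, introns, exons and intergenic sequence) made up 8.21% to 12.0% of the table in adipocytes, against 18.5%, 18.9% and 5.29% in preadipocyte replicates 1, 2 and 3. Preadipocyte replicate 3 thus stands apart from its group, and preadipocyte replicate 2 does so by its reads of miR-106a and miR-32. All 6 rows of miRNAs described in adipocytes (such as miR-143 and miR-378) were detected, at a summed 26854 to 32770 CPM in adipocytes and 25553 to 39567 CPM in preadipocytes. Of these rows 2 passed edgeR's test as higher in adipocytes and 0 as lower. The 3 leukocyte rows (miR-142-3p, miR-223 and miR-150) summed to at most 0.102 CPM in adipocytes, against 0.244 CPM in preadipocytes. The serum used was itself bovine, so its miRNAs would be counted with those of the cells. The 3 erythroid rows (miR-451, miR-486 and miR-144) summed to 0.521 to 1.13 CPM in adipocytes and 1.77 to 4.72 CPM in preadipocytes, and miR-122, a liver and serum miRNA, was at most at 0.102 CPM in adipocytes, against 0.163 CPM in preadipocytes. The 3 muscle rows (miR-1, miR-133a and miR-206) summed to 20.6 to 25.7 CPM in adipocytes and 21.1 to 52.0 CPM in preadipocytes, and 1 of them passed as lower in adipocytes.

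The miR-106b-25 cluster supplied nearly all of the reads. Its summed level was 2000, 2520 and 1893 CPM in adipocyte replicates 1, 2 and 3, against 1759, 1723 and 1937 CPM in preadipocyte replicates 1, 2 and 3. The groups overlapped, since adipocyte replicate 3 lay below preadipocyte replicate 3. The rows of the miR-106a-363 cluster together reached only 18.3, 15.0 and 50.6 CPM in adipocytes and 89.7, 29.0 and 61.6 CPM in preadipocytes. The 8 miRNAs together took 0.278%, 0.361% and 0.204% of the miRNA reads in adipocytes and 0.165%, 0.161% and 0.151% in preadipocytes. That share was higher in every adipocyte library, but it is taken of a total in which miR-21-5p held less in adipocytes. With miR-21-5p left out of the total, the share was 0.772%, 1.08% and 0.785% in adipocytes and 0.746%, 0.763% and 0.763% in preadipocytes. It was then still higher in every adipocyte library, by a small margin in adipocyte replicates 1 and 3. On the TMM scale the sum of the 8 was 2072, 2580 and 1991 CPM in adipocytes and 1963, 1907 and 2059 CPM in preadipocytes, and the groups overlapped.

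**Figure D1:**
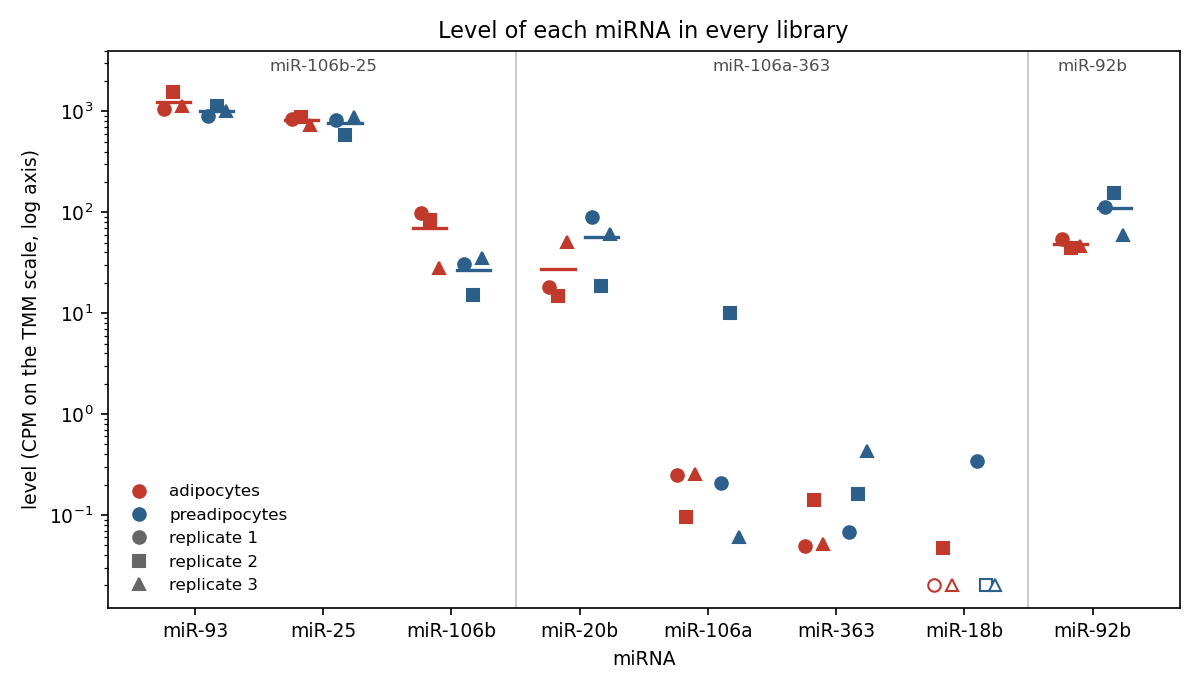
Level of each of the 8 miRNAs in every library, in CPM on the TMM scale on a log axis, with adipocytes in red and preadipocytes in blue, a marker shape per replicate and a short line at the group mean of the miRNAs that were tested. Open markers at the foot of the plot are counts of 0. Only for miR-92b, at 44.3 to 53.9 CPM in adipocytes and 59.9 to 155 CPM in preadipocytes, do the groups of a tested miRNA lie apart, and miR-106a stands at 10.0 CPM in preadipocyte replicate 2 and below 0.3 CPM elsewhere.

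Of the 8 miRNAs, 5 had enough reads to pass edgeR's low-count filter (miR-93, miR-25, miR-106b, miR-20b and miR-92b), and 0 of these passed a Benjamini-Hochberg (BH) adjusted p of 0.05 over the 414 tested miRNAs. The share called among all tested miRNAs was 6.28%, so that no call among 5 does not set them apart. By unadjusted p under 0.05 there were 2, miR-106b and miR-92b, against 34.1% of all tested miRNAs, and DESeq2 called 1, miR-92b, against 23.2%. The log2 differences of adipocytes minus preadipocytes were positive for 3 and negative for 2, with a median of 0.10, against -0.02 over all tested miRNAs. The groups did not overlap for 1 of the 5 on the TMM scale, where 44.7% of all tested miRNAs were apart.

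The most abundant of the set was bta-miR-93, the middle hairpin of the MCM7 intron and a relative of miR-17, which ranked 36th among known miRNAs by mean CPM. Its level was 1057, 1548 and 1139 CPM in adipocyte replicates 1, 2 and 3, against 901, 1122 and 1014 CPM in preadipocyte replicates 1, 2 and 3. Adipocyte replicate 2 was the highest library and preadipocyte replicate 1 the lowest, and the groups overlapped only through preadipocyte replicate 2. The means were 1248 ± 263 CPM in adipocytes, against 1013 ± 111 CPM in preadipocytes (SD, n = 3 each), which gave 0.30 as the log2 difference (SE 0.25, edgeR BH-adjusted p = 0.401).

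Next in level, at rank 48, was bta-miR-25, the hairpin of the same intron that has the miR-92a seed. It was at 845, 889 and 726 CPM in adipocytes and 827, 586 and 888 CPM in preadipocytes. The highest adipocyte and the highest preadipocyte library were nearly equal, and the lowest library was preadipocyte replicate 2. The log2 difference was 0.10 (SE 0.25, edgeR BH-adjusted p = 0.785), from means of 820 ± 84.0 and 767 ± 160 CPM in adipocytes and preadipocytes (SD, n = 3 each). In 6 of 6 libraries miR-25 had fewer reads than miR-93, at ratios of 0.799, 0.574 and 0.638 in adipocytes and 0.917, 0.522 and 0.875 in preadipocytes.

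The third product of the intron, bta-miR-106b, was far below its neighbours and varied most among the 3. It was read 1967, 1769 and 551 times in adipocyte replicates 1, 2 and 3 and 453, 184 and 578 times in preadipocyte replicates 1, 2 and 3. These counts correspond to 97.5, 83.7 and 28.2 CPM in adipocytes and 31.0, 15.0 and 35.3 CPM in preadipocytes. Adipocyte replicates 1 and 2 lay above every preadipocyte library, while adipocyte replicate 3 lay inside the preadipocyte range. The log2 difference of 1.37 (SE 0.57) was the largest positive one of the set and did not pass (edgeR BH-adjusted p = 0.145). Within the cluster miR-106b made up 4.88%, 3.32% and 1.49% of the reads in adipocytes and 1.76%, 0.87% and 1.82% in preadipocytes. Thus the 3 miRNAs of a single intron did not keep a fixed proportion across libraries. The ratio of miR-93 to miR-106b was 10.8, 18.5 and 40.4 in adipocytes and 29.1, 74.7 and 28.7 in preadipocytes, and its groups overlapped (log2 difference -0.98, exact two-sided permutation p = 0.3, n = 3 each). That difference was -0.54 without adipocyte replicate 1, -1.49 without adipocyte replicate 3 and -0.52 without preadipocyte replicate 2.

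In the miR-106a-363 cluster, bta-miR-20b was the only row with more than traces in every library. It was read 310 to 983 times in an adipocyte library and 231 to 1303 times in a preadipocyte library. Adipocyte replicates 1, 2 and 3 held 18.0, 14.7 and 50.3 CPM of it, against 89.1, 18.8 and 61.1 CPM for preadipocyte replicates 1, 2 and 3. Both groups held low and high libraries, since adipocyte replicate 3 was well above its group and preadipocyte replicate 2 well below. The log2 difference was -1.03 (SE 0.71, edgeR BH-adjusted p = 0.323), and it was -1.98 without adipocyte replicate 3 and -0.54 without preadipocyte replicate 1. In adipocytes and preadipocytes its coefficients of variation were 71.1% and 62.8%, the highest of the 5 tested miRNAs in either group.

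The other 3 rows of that cluster were close to the limit of detection and did not pass the low-count filter. A count of 0 allows a level of up to 0.142 to 0.153 CPM in the adipocyte and 0.183 to 0.244 CPM in the preadipocyte libraries (3 counts per library, counting error only). The row of bta-miR-106a, the relative of miR-17 that opens the cluster, held 5, 2 and 5 reads in adipocytes and 3, 123 and 1 in preadipocytes. Thus 123 of the 127 preadipocyte reads came from preadipocyte replicate 2, and without it both groups lay at a few reads per library. The row of bta-miR-18b held 0, 1 and 0 reads in adipocytes and 5, 0 and 0 in preadipocytes, and that of bta-miR-363 held 1, 3 and 1 in adipocytes and 1, 2 and 7 in preadipocytes. No difference was detectable at this depth for either. The genes of miR-20b, miR-18b and miR-106a are neighbours, yet miR-20b made up 98.1% to 99.4% of the cluster's rows in adipocytes and 64.9% to 99.3% in preadipocytes.

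The other miRNA with the miR-25 seed and a separate gene, bta-miR-92b, was lower in every adipocyte library than in any preadipocyte library. It was at 53.9, 44.3 and 46.7 CPM in adipocytes and 114, 155 and 59.9 CPM in preadipocytes, where replicate 3 was nearest to the adipocytes. The log2 difference was -1.18 (SE 0.40) and did not pass in edgeR's test (BH-adjusted p = 0.0955). It passed with DESeq2 (-1.24, BH-adjusted p = 0.0261) and, in edgeR, without preadipocyte replicate 3 (-1.49, BH-adjusted p = 0.0204), where 31.8% of all tested miRNAs passed. In CPM of the library totals, with no TMM factors, the groups overlapped, at 72.4, 61.9 and 47.7 in adipocytes and 95.7, 131 and 43.98 in preadipocytes. Groups lay apart for 44.7% of all tested miRNAs on the TMM scale, and the erythroid and leukocyte sums were also lower in every adipocyte library. So was the summed level of the 2 rows of miR-126, an endothelial miRNA, at 43.0 to 67.9 CPM in adipocytes and 114 to 455 CPM in preadipocytes. It was highest in preadipocyte replicate 3, where miR-92b was lowest among preadipocytes, and neither row passed the test. The share of genome-feature reads was also lowest among preadipocytes in replicate 3. The part of any of these in the miR-92b values was not tested.

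In adipocytes the order of mean levels was miR-93, miR-25, miR-106b, miR-92b and miR-20b, and in preadipocytes it was miR-93, miR-25, miR-92b, miR-20b and miR-106b. Every miR-93 library (at least 1057 CPM in adipocytes, against 901 CPM in preadipocytes) lay above every miR-25 library of its group (at most 889 CPM in adipocytes, against 888 CPM in preadipocytes), in preadipocytes by less than the SD of either miRNA. Every miR-25 library (at least 726 CPM in adipocytes, against 586 CPM in preadipocytes) lay above every library of the next miRNA (at most 97.5 CPM for miR-106b in adipocytes and 155 CPM for miR-92b in preadipocytes). The ranges of miR-106b, miR-92b and miR-20b overlapped between neighbours in adipocytes (28.2 to 97.5, 44.3 to 53.9 and 14.7 to 50.3 CPM), and so did those of miR-92b, miR-20b and miR-106b in preadipocytes (59.9 to 155, 18.8 to 89.1 and 15.0 to 35.3 CPM).

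Since a ratio of counts within a library needs no scaling, each member was also set against its relative of the MIR17HG cluster, and miR-93 against miR-106b and miR-25 against miR-93. Of these 10 ratios, 8 had a mean of at least 10 counts on both sides, and in 2 of the 8 the groups did not overlap, against 40.9% of all pairs of tested known miRNAs. The ratio of miR-106a to miR-17-5p reached that minimum only through preadipocyte replicate 2, and 7 ratios remain without that library. The 2 were miR-25 over miR-92a and miR-106b over miR-17-5p. Both had a two-sided p of 0.1 in the exact permutation test, which 3 libraries against 3 cannot undercut, and a BH-adjusted p of 0.4 over the 8 ratios.

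The ratio of miR-25 to miR-92a was 0.506, 0.553 and 0.386 in adipocyte replicates 1, 2 and 3, against 0.264, 0.157 and 0.320 in preadipocyte replicates 1, 2 and 3. All 3 adipocyte libraries lay above all 3 preadipocyte libraries, with a log2 difference of 1.01 that ranged from 0.71 to 1.23 when each library was left out in turn. In these libraries miR-92a was at 1670, 1608 and 1879 CPM in adipocytes and 3135, 3722 and 2777 CPM in preadipocytes, which did not overlap on this scale, while the levels of miR-25 did. In CPM of the library totals it was the other way round, with the groups apart for miR-25 and overlapping for miR-92a. The difference of miR-92a on the TMM scale was -0.90 (SE 0.22, edgeR BH-adjusted p = 0.0588). It passed with DESeq2 (-0.94, BH-adjusted p = 0.0061) and, in edgeR, with upper-quartile factors, known miRNAs alone, a mean of at least 10 CPM or without preadipocyte replicate 3 (BH-adjusted p of 0.0447, 0.0477, 0.0304 and 0.0255). These settings called 96 of 414, 49 of 414, 59 of 365, 43 of 217 and 148 of 465 tested miRNAs. It did not pass with RLE factors, totals without miR-21-5p, no low-count filter or the replicate block (edgeR BH-adjusted p of 0.0609, 0.0641, 0.153 and 0.157), nor without any other single library. With library totals alone it was -0.29 (edgeR BH-adjusted p = 0.416).

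The ratio of miR-106b to miR-17-5p was 5.38, 3.73 and 1.873 in adipocytes and 1.19, 1.14 and 1.869 in preadipocytes. Replicate 3 of the adipocytes and replicate 3 of the preadipocytes were nearly equal, so that the separation of the groups (log2 difference 1.30) rests on a margin far below the spread between replicates. The other ratios overlapped. That of miR-20b to miR-20a was 0.166, 0.147 and 0.680 in adipocytes and 0.770, 0.382 and 0.566 in preadipocytes (log2 difference -1.11, exact permutation p = 0.3, n = 3 each), and the difference was -0.71 without adipocyte replicate 2 and -1.82 without adipocyte replicate 3. That of miR-93 to miR-20a was 9.75, 15.5 and 15.4 in adipocytes and 7.79, 22.7 and 9.39 in preadipocytes, and that of miR-92b to miR-92a lay between 0.0249 and 0.0323 in adipocytes and between 0.0216 and 0.0418 in preadipocytes. The ratio of miR-106a to miR-17-5p was at most 0.0187 in adipocytes, against 0.760 in preadipocyte replicate 2 and at most 0.0092 in the other preadipocyte libraries.

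**Figure D2:**
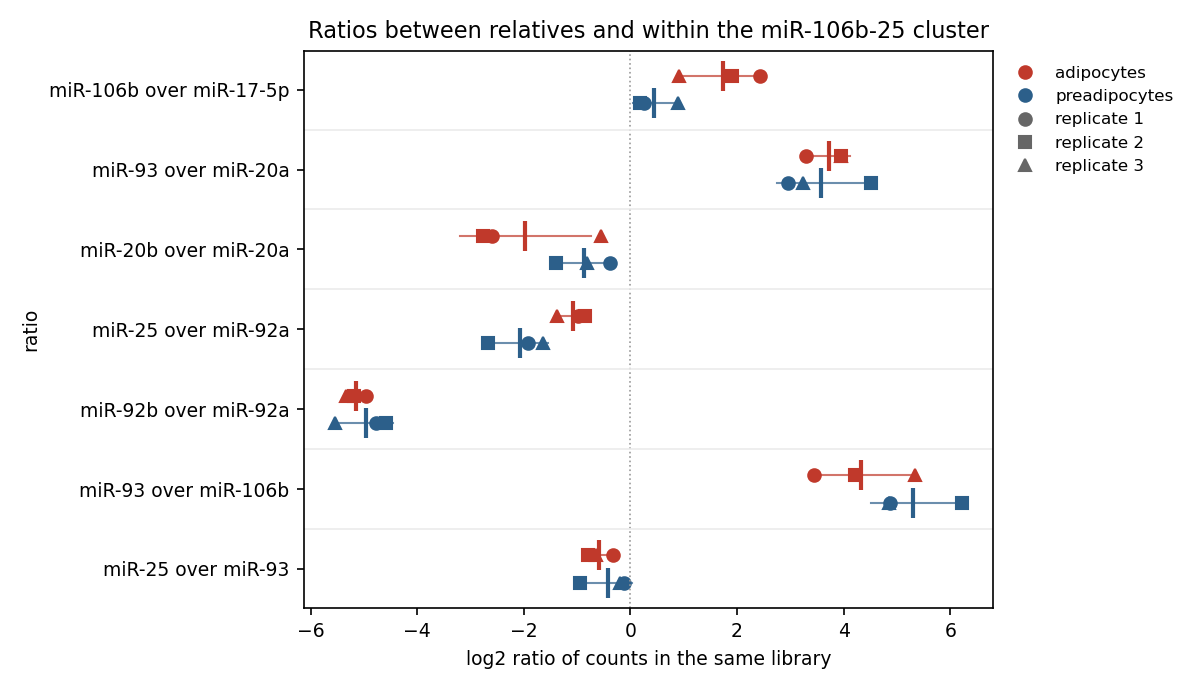
Log2 ratios of counts in the same library for 7 of the 8 ratios, with 0.5 added to each count, adipocytes in red above preadipocytes in blue, a marker shape per replicate, a vertical tick at each group mean and a line of 1 SD to each side. The ratio of miR-106a to miR-17-5p is left out because it rests on a few reads in all libraries but preadipocyte replicate 2. The groups do not overlap for miR-25 over miR-92a (adipocytes -1.37 to -0.86, preadipocytes -2.67 to -1.65) and nearly touch for miR-106b over miR-17-5p.

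Near-identical sequences such as miR-20a and miR-20b, miR-18a and miR-18b, or miR-17-5p and miR-106a may have been split between their rows by the authors' counting, whose rule is not known, and each of these rows is uncertain to that extent. Reads were therefore summed by seed and the whole table was fitted again. The sum of the miR-17-like rows (miR-17-5p, miR-20a, miR-20b, miR-93, miR-106a and miR-106b) was 1279, 1758 and 1303 CPM in adipocytes and 1168, 1221 and 1271 CPM in preadipocytes, so that every adipocyte library lay above every preadipocyte library by a small margin. Its log2 difference was 0.25 (SE 0.23, edgeR BH-adjusted p = 0.451). In every library most of this sum was miR-93, so it says little about the rarer rows among which reads may have been split. The sum of the miR-25-like rows (miR-25, miR-92a, miR-92b and miR-363) was 2529, 2524 and 2645 CPM in adipocytes and 4092, 4436 and 3827 CPM in preadipocytes, also without overlap, and the log2 difference was -0.68 (SE 0.19, edgeR BH-adjusted p = 0.0609). Most of that sum was miR-92a, and 7.13% of the rows passed in this fit. For the other seed sums the groups overlapped. The miR-18 sum was 22.9 to 27.8 CPM in adipocytes and 16.4 to 48.6 CPM in preadipocytes (edgeR BH-adjusted p = 0.566). The miR-19 sum was 269.5 to 429 CPM in adipocytes and 94.7 to 390 CPM in preadipocytes (edgeR BH-adjusted p = 0.340). Before summing, groups lay apart for 44.7% of all tested miRNAs, so a lack of overlap does not set a sum apart.

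All 7 rows of the MIR17HG cluster were tested and 0 passed, with a median log2 difference of 0.05. The closest to miR-106b in its values was miR-17-3p, the lesser arm of miR-17, at 3.42, 3.88 and 1.38 CPM in adipocytes and 1.44, 0.57 and 1.04 CPM in preadipocytes (log2 difference 1.499, SE 0.54, edgeR BH-adjusted p = 0.108). Like miR-106b, it was high in adipocyte replicates 1 and 2 and within the preadipocyte range in adipocyte replicate 3. The log2 CPM of miR-106b and miR-17-3p had a Pearson r of 0.962 over the 6 libraries, which share their scaling. For miR-17-5p the log2 difference was -0.06 (SE 0.36) and for miR-20a 0.05 (SE 0.40), both without a call. The largest positive estimate after miR-17-3p was that of miR-19b, at 428, 267 and 389 CPM in adipocytes and 161, 92.9 and 375 CPM in preadipocytes (0.79, edgeR BH-adjusted p = 0.314). It passed without preadipocyte replicate 3 (1.52, edgeR BH-adjusted p = 0.0334), where 31.8% of all tested miRNAs passed. That library was the only preadipocyte one inside the adipocyte range. Of the other carriers of the miR-25 seed, miR-367 had 1 read in all libraries together, and miR-32 had 80, 95 and 7 reads in adipocytes and 9, 3514 and 9 in preadipocytes. The log2 difference of miR-32 was -5.02 with all libraries and 2.30 without preadipocyte replicate 2, the library that also held nearly all miR-106a reads.

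**Figure D3:**
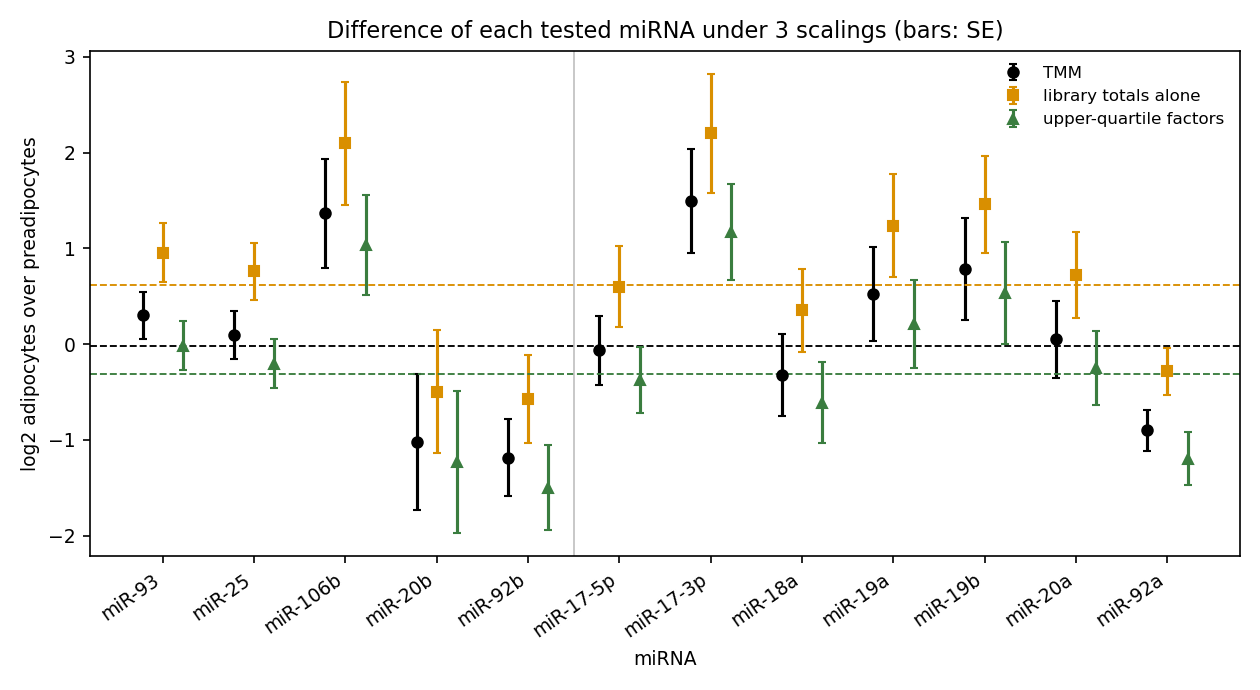
Log2 difference of adipocytes over preadipocytes for the 5 tested miRNAs of the set, left of the line, and the 7 rows of the MIR17HG cluster, right of it, under TMM, library totals alone and upper-quartile factors. Bars are the SE of edgeR's fit and dashed lines the median of all tested miRNAs in the same colour (-0.02, 0.62 and -0.31). The estimates of miR-106b stay above 1 and those of miR-20b and miR-92b below 0 under all 3 scalings. All estimates shift with the median, and those of miR-93 and miR-25, which lie nearer to it, turn negative with upper-quartile factors.

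The scaling decided the sign for the abundant pair. With library totals alone the median of all tested miRNAs was 0.62, and the log2 differences were 0.95 for miR-93 and 0.76 for miR-25, each with all adipocyte libraries above all preadipocyte libraries. With upper-quartile factors the median was -0.31, and the differences were -0.02 for miR-93 and -0.20 for miR-25. Relative to those medians both stayed close to the bulk of the miRNAs. The difference of miR-106b was 2.10 with library totals alone (edgeR BH-adjusted p = 0.0558) and 1.04 with upper-quartile factors, above the median in either case. With library totals alone the groups were apart for 3 of the 5 (miR-93, miR-25 and miR-106b, all higher in adipocytes), against 46.6% of all tested miRNAs, and without miR-21-5p in the totals for miR-92b alone, against 45.2%.

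The profiles most like each member over the 6 libraries were listed by Pearson correlation of log2 CPM, as a description. Candidates were the 353 known miRNAs tested that are neither members nor rows of the MIR17HG cluster. Nearest to miR-106b were miR-29b (r = 0.968), miR-101 (0.967) and miR-193a-3p (0.964). The first of these, a collagen-targeting miRNA, averaged 680 ± 476 CPM in adipocytes, against 120 ± 36.0 CPM in preadipocytes, and miR-101 at 37.7 ± 18.1 and 9.94 ± 5.68 CPM (adipocytes and preadipocytes, SD, n = 3 each). Nearest to miR-92b were miR-532 (r = 0.986), miR-11982 (0.978) and miR-149-5p (0.977), all with lower means in adipocytes, such as 220 ± 12.4 CPM against 332 ± 94.4 CPM in preadipocytes for miR-532. Nearest to miR-25 were miR-140 (r = 0.984), miR-628 (0.974) and miR-671 (0.936), and nearest to miR-20b were miR-181a (0.926), miR-11977 (0.924) and miR-301a (0.914). For miR-93 they were miR-132 (0.952), miR-345-3p (0.912) and miR-6123 (0.892). Of all these nearest miRNAs, miR-132 and miR-628 averaged below 1 CPM in both groups, and miR-11982 did so in adipocytes. No miRNA was among the nearest of more than 1 member. Between members of the MCM7 intron, r was 0.773 for miR-106b and miR-25, 0.386 for miR-106b and miR-93 and 0.072 for miR-25 and miR-93. Over the 7 rows of the MIR17HG cluster, the r of miR-25 ran from -0.536 (miR-92a) to 0.954 (miR-20a).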

How the data were processed

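Per the labels' protocols, RNA of 18 to 30 nt was cut from a gel for the 3 adipocyte and 3 preadipocyte libraries. The submitters' processing notes name Bowtie2. Its version, the build, the miRNA release and the treatment of reads with several matches are not given in the sources used here. This table has 2213 rows with, per the file headers, a raw read count and a TPM value per library. The deposited TPM is the authors' count divided by 1 constant per library and was not used for tests. Columns were matched by sample title.

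Counts of 771 known and 108 predicted miRNAs were tested with edgeR 4.0.16 in R 4.3.3 (TMM, filterByExpr, glmQLFit, glmQLFTest, group only, two-sided), with Benjamini-Hochberg adjustment over the 414 that passed the filter and a threshold of 0.05. The SE is the log2 difference divided by the root of the F statistic. The 4 genome-feature rows (5.29% to 18.9% of a table) and the Rfam and piRNA rows stayed out. Ratios had 0.5 added to each count and were tested with exact permutation in SciPy 1.17.1. Alternatives were other factors (RLE, upper quartile, totals with and without miR-21-5p), other filters, known miRNAs alone, DESeq2 1.42.0, a replicate block, each library left out and seed families summed. On counts simulated for the adipocyte against preadipocyte comparison with a fixed dispersion, over 443 miRNAs, edgeR's steps found 51.7% of the miRNAs changed 2-fold, 95.9% of those changed 4-fold and 100% of those changed 8-fold, with 5 calls among 246 unchanged ones. That dispersion was set and not estimated from these libraries. The shares found therefore need not hold for rows as variable as miR-106b (SE 0.57) or miR-20b (SE 0.71). The miRNAs described, the relatives and the marker lists were chosen with earlier results of these data known. The rule for named miRNAs takes all rows of the set and of MIR17HG, the other carriers of the miR-25 seed, and the 3 tested known miRNAs most correlated with each member at a mean of at least 10 CPM. These correlated miRNAs were sought outside the set and MIR17HG. The RefSeq table (ARS-UCD2.0) was used for names and neighbours only, since the table's build is not stated.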

Additional observations from a re-analysis of the deposited data

Results flagged for a closer look

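The table also holds Rfam rows for the same families, which no comparison above uses and which exceeded the 3 counts that a count of 0 allows in at least 1 library. The mir-17 family row held 1273, 1790 and 901 reads in the adipocyte libraries (replicates 1, 2 and 3) and 521, 314 and 835 in the preadipocyte libraries. The mir-92 family row held 8059, 9558 and 10002 reads in adipocytes and 11513, 15276 and 9040 in preadipocytes. The mir-19 family row held 818, 728 and 683 reads in adipocytes and 85, 138 and 391 in preadipocytes. The mir-25 row held 2, 4 and 0 reads in adipocytes and 0, 0 and 4 in preadipocytes. Whether these rows share reads with the miRNA rows is not given in the sources used here.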

How the results depend on the processing

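The count of 26 miRNAs past the threshold was 49 with upper-quartile factors, 97 with library totals alone, 43 with a mean of at least 10 CPM, 59 with known miRNAs alone, 96 with DESeq2 and 1 with the replicate block, and ranged from 1 to 148 when a library was left out. For the 8 miRNAs the count of 0 became 1 (miR-92b) with DESeq2 (-1.24) and without preadipocyte replicate 3, so that it ranged from 0 to 1 over left-out libraries, where miR-92b ranged from -1.49 to -0.86. The sign of miR-25 turned with upper-quartile factors (-0.20) and a mean of at least 10 CPM (-0.10) and ranged from -0.086 to 0.22 over left-out libraries. That of miR-93 turned with upper-quartile factors (-0.017). The ratios whose groups did not overlap numbered 2 to 4, with 4 of 8 without adipocyte replicate 3 and 4 of 7 without preadipocyte replicate 2. Groups of 2 against 3 libraries lie apart more readily than 3 against 3. The share over all pairs was taken with all 6 libraries only, so the rise to 4 is not a result about these ratios. The log2 difference of the ratio of miR-93 to miR-20a ranged from -0.14 to 0.63 and that of miR-92b to miR-92a from -0.47 to 0.0028. The cause was not tested. Signs of miR-106b, miR-20b and miR-92b held under every alternative that kept their rows. Same-numbered libraries did not deviate together (r = 0.0372, -0.337 and 0.0536), and no library correlated best with its own number, so the block pairs samples by number only.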
